A study of Macaca mulatta with 23 samples.

Results

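Hippocampal field CA1 was compared with the dentate gyrus (DG) of the same animal in young female rhesus macaques (Macaca mulatta). Arrays were taken by the age in their titles, under 8 years, and each CA1 array was set against the DG array with the same replicate number. The replicate number was read as the number of the animal, which the labels do not state. This gave 12 of the 23 arrays analysed, as 6 pairs from the animals numbered 1, 4, 5, 8, 9 and 12. The young animals were 6.5 to 7.75 years old. The other 11 arrays were 6 CA1 and 5 DG arrays of aged females of 20.25 to 25.0 years, whose 5 complete pairs served here as a separate set of animals. The labels name no treatment or genetic change that separates the groups, and all animals had been tested for memory with a delayed match to sample task before ketamine anaesthesia and death by pentobarbital overdose. A single hippocampus per animal was divided into its fields by dissection, so each sample is a mixture of all cell types of the dissected field. In such samples fewer cells of a type and less RNA per cell cannot be told apart.

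The hippocampus passes information along a chain of fields. Granule cells of the DG receive cortical input and send mossy fibres to CA3, and CA3 axons reach the pyramidal neurons of CA1, which form a main output of the structure. Granule cells keep expressing the transcription factor PROX1 after they mature, and the white matter of the alveus lies against CA1. No sequence tables for these genes were used here, and the results are given as signals of probe sets.

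RNA was measured on Affymetrix Rhesus arrays, on which each probe set reads a transcript with short oligonucleotides. The values are MAS5 signals on a log2 scale, so a difference of 1 is a doubling, and the fold values given beside them are on the linear scale. The median signal per young array lay between 109 and 135, or 6.77 and 7.08 on the log2 scale. CA1 and DG were compared within animals with limma, with p-values adjusted by the Benjamini-Hochberg method over 26519 probe sets, and a probe set with adjusted p under 0.05 is called higher or lower in CA1. Each gene is represented by its named probe set with the highest mean signal, and every ± is a standard error over n = 6 pairs unless another number is given.

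The CA1 arrays of 2 animals stood apart. The CA1 array of animal 5 had a mean log2 signal over 9 granule cell genes of 10.92, against 10.15 to 10.42 in the other CA1 arrays and 10.80 to 11.19 in DG. It also had the lowest CA1 level of 10 pyramidal neuron genes, 10.19 against 10.60 to 10.96. In animal 5 the myelin genes also ran the other way, with a mean over 11 genes of 11.37 in CA1 and 11.77 in DG. Here the DG array stood further apart than the CA1 array. The other DG arrays had 10.69 to 11.24 and the other CA1 arrays 11.43 to 12.43. The CA1 array of animal 8 had a 3'/5' signal ratio for actin, a measure of RNA integrity, of 3.43 as a log2 value, where the remaining CA1 arrays had 0.70 to 1.41 and the DG arrays 0.54 to 1.22. It lay at -100.91 on the first principal component (28.6% of the variance), where the other 11 arrays lay between -23.86 and 41.82. Values without animal 5, or without animals 5 and 8, are therefore given beside a part of the results. Of the 121 called genes named here, 12 lost their call without animal 5 and 19 without animals 5 and 8. The 19 include DUSP1, DLG1, CACNA1D, NFIX, SDHA and COX6B1 (limma adjusted p = 0.0544 to 0.0919). The part of neighbouring tissue or of RNA integrity in the results was not tested. Animal 5 was singled out by its granule cell signal. Larger differences and smaller p-values of granule cell genes without it follow from that choice and are no separate evidence.

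The regional labels were read against 4 marker genes, and all 4 differed between the fields, each in the same direction in 6 of 6 animals. PROX1, the transcription factor of granule cell identity, had log2 signals of 8.55 to 11.06 (median 9.75) in CA1 and 10.72 to 11.74 (median 11.25) in DG, which made it 2.83-fold lower in CA1 (log2 difference -1.50 ± 0.32, limma adjusted p = 0.0266). The groups overlapped through the CA1 array of animal 5 alone, which at 11.06 lay among the DG arrays, while the other CA1 arrays reached at most 9.92. Without that pair, singled out by its granule cell signal, the difference was -1.77 (limma adjusted p = 0.00897). C1QL2, a secreted synaptic protein of mossy fibre terminals, had signals of 10.01 to 11.49 (median 10.89) in CA1 and 11.44 to 12.04 (median 11.81) in DG, a difference of -0.96 ± 0.22 (adjusted p = 0.0329; -1.11 without animal 5). Its CA1 arrays fell into a higher set, those of animals 5, 9 and 12, and a lower set, those of animals 1, 4 and 8, and only animal 5 overlapped with DG.

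MET, a receptor tyrosine kinase for hepatocyte growth factor, had signals of 8.93 to 11.05 (median 9.44) in CA1 and 5.70 to 7.99 (median 7.39) in DG, which made it 5.83-fold higher in CA1 (2.54 ± 0.45, adjusted p = 0.0182). The groups did not overlap, which held for 4.37% of the named genes tested, and animal 9 had both the highest CA1 signal and the lowest DG signal. Animal 5 did not stand apart here, with a difference of 1.74 beside 1.66 to 5.35 in the others. The other 4 MET probe sets had differences of 1.36 to 1.99, and the only one bright enough to be tested had an adjusted p of 0.0653. MEIS2, a homeobox factor, had signals of 9.39 to 11.19 (median 10.94) in CA1 and 7.98 to 9.51 (median 8.74) in DG, which made it 3.79-fold higher in CA1 (1.92 ± 0.28, adjusted p = 0.0128). All CA1 arrays but that of animal 5 lay above every DG array, and without animal 5 the difference was 2.19 (adjusted p = 0.00207).

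**Figure D1:**
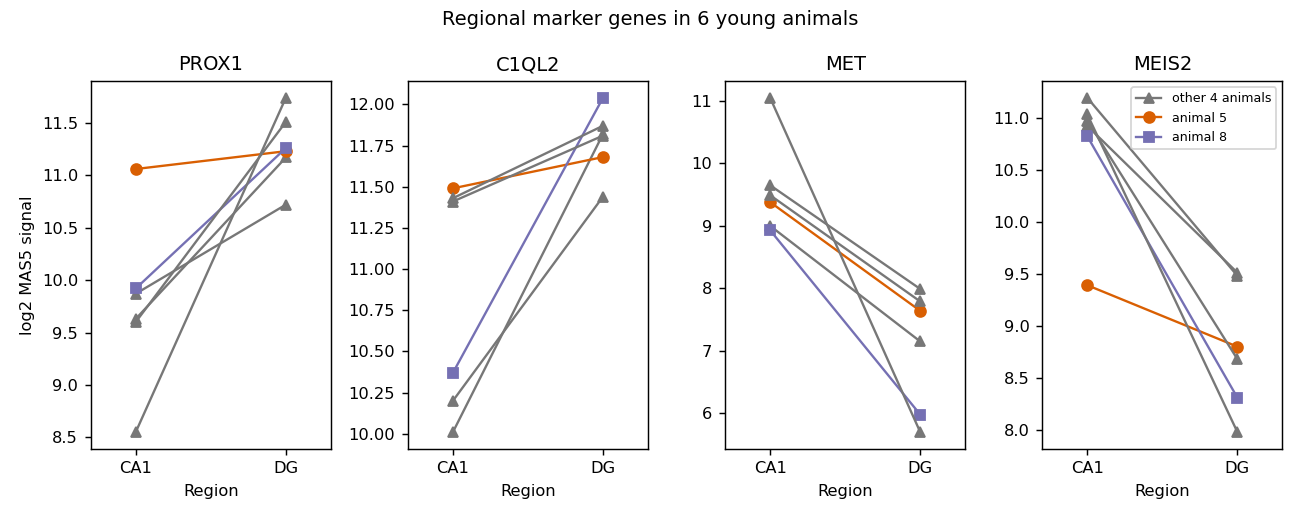
Log2 MAS5 signal (y axis) of PROX1, C1QL2, MET and MEIS2 in CA1 and DG (x axis), a point per array and a line per young animal, with animal 5 as orange circles and animal 8 as purple squares. Every line falls or rises in the same direction within a gene, and the CA1 array of animal 5 sits at 11.06 for PROX1 and 9.39 for MEIS2, nearer to DG than any other CA1 array.

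Of 9 granule cell genes tested, 4 were lower in CA1, 0 were higher and 5 did not pass (1 higher and 6 lower at an unadjusted limma p under 0.05), with a median difference of -0.52 against 0.03 over all named genes. Among all 9868 named genes tested, 10.4% were called, 6.64% higher and 3.79% lower, and the counts of every list below are to be read against these shares. STXBP6, a syntaxin-binding protein, had signals of 8.95 to 10.89 (median 9.21) in CA1 and 10.80 to 11.52 (median 11.10) in DG, a difference of -1.56 ± 0.25 (adjusted p = 0.0143; -1.85 without animal 5). Animal 5 again had the highest CA1 signal, which alone overlapped with DG, and a difference of -0.09. AKAP7, an anchor of protein kinase A, was 1.38-fold lower (-0.46 ± 0.08, adjusted p = 0.0201), and another of its probe sets had 0.10 ± 0.10.

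Of 10 CA1 pyramidal neuron genes tested, 7 were higher in CA1 and 0 lower (9 and 0 at an unadjusted limma p under 0.05), with a median difference of 1.11. Beside MET and MEIS2 these were CCN3, ETV1, CRYM, POU3F1 and TYRO3. CCN3, a secreted matricellular protein, had signals of 10.41 to 11.75 (median 11.22) in CA1 and 8.93 to 10.63 (median 9.35) in DG (1.63 ± 0.15, adjusted p = 0.00464). The groups overlapped because the lowest CA1 signal, in animal 5, was below the highest DG signal, in animal 1, while within animals the difference was between 1.11 and 2.13. ETV1, an ETS family transcription factor, was 2.39-fold higher (1.26 ± 0.17, adjusted p = 0.0112), with 1.08 in animal 5, and its other 2 probe sets had 0.89 ± 0.31 and 0.69 ± 0.22, neither of which passed. POU3F1, a POU domain factor, was 3.26-fold higher, but its difference ran from 0.01 in animal 4 to 3.82 in animal 9, and without animals 5 and 8 it did not pass (1.66, adjusted p = 0.066). CRYM, a thyroid hormone-binding protein, was 1.94-fold higher and TYRO3, a receptor tyrosine kinase, 1.64-fold higher.

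WFS1, an endoplasmic reticulum protein widely used to mark CA1 in mice, had signals of 10.40 to 11.06 (median 10.70) in CA1 and 10.57 to 10.95 (median 10.72) in DG, a difference of -0.04 ± 0.11 (adjusted p = 0.831). The groups overlapped throughout, with CA1 higher in 2 of 6 animals. The sign of this small difference depended on scaling, since a common 75th percentile gave 0.01. Without animals 5 and 8 it was -0.23 (limma adjusted p = 0.148). A second tested WFS1 probe set had -0.31 ± 0.12 and was lower in CA1 in 5 of 6 animals, but did not pass (limma adjusted p = 0.131).

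In all, limma called 2547 of 26519 probe sets, or 9.6%, of which 1180 (4.45%) were higher in CA1 and 1367 (5.15%) lower. The called probe sets had a median absolute difference of 0.64, 441 of them differed by more than 2-fold, and 2143 had the same sign in all 6 animals. CA1 and DG arrays did not overlap for 3.89% of all probe sets tested. Among those called, 46.3% were higher in CA1, and this split depended on scaling: it was 51.6% after quantile normalization and 58.1% with a common 75th percentile. The median difference of all probe sets was -0.05, -0.01 and 0.00 under the 3 scalings. The number of calls depended on the animals. It was 3096 (11.6%) without animal 5, of which 2125 were also called in all 6 pairs, and 3294 (12.4%) without animals 5 and 8, of which 1875 were shared, but 821 (3.09%) without animal 8, 602 without animal 4, 597 without animal 9, 533 without animal 12 and 131 without animal 1. Of the named genes, 7.4% were higher and 5.07% lower without animal 5, 1.77% and 1.33% without animal 8, and 6.89% and 5.55% without both. The 121 called genes named here were chosen by their calls in these 6 pairs, so a kept direction was largely fixed by that choice. All kept their direction whichever animal was left out, and none moved by more than 1.5 times on the log2 scale. Only 15 stayed called in each of these 6 fits, namely MEIS2, CCN3, ETV1, STARD13, PARM1, EFNB2, CDH18, CAMK2D, RGS2, ENPP2 and HBA on the higher side and PMEL, HTR7, GRIK2 and PLXNA4 on the lower side. The 12 named genes that lost their call without animal 5 also lost it without animal 1 and without animal 9.

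Probe sets called in 5 animals were then looked up in the animal left out, whose arrays had no part in the call. In animals 1, 4, 8, 9 and 12 between 93.2% and 99.2% of them had the same sign in the animal left out. In animal 5 the share was 64.5% of 3096 probe sets, and the median difference there was 0.13 in the direction of the call, against a median size of 0.70 in the others. Both directions were alike in this animal, with 65.9% of the higher and 63.3% of the lower calls keeping their sign. In animal 8, by contrast, the median difference was larger than in the others, 0.99 against 0.78, and the differences over all probe sets had a standard deviation of 0.75, against 0.45 to 0.64 in the rest.

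**Figure D2:**
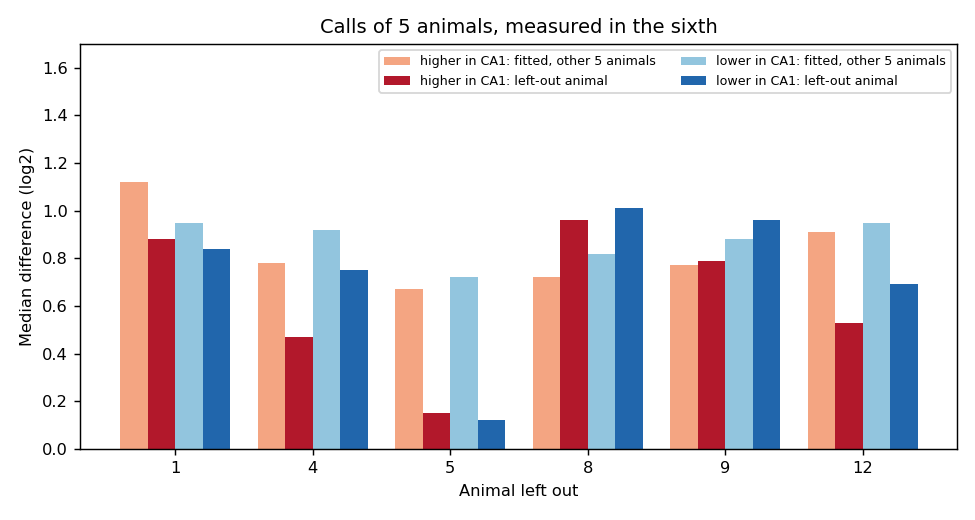
Median CA1 minus DG difference on the log2 scale (y axis) of probe sets called in 5 animals, as fitted in those 5 (pale bars) and as measured in the animal left out (dark bars), for probe sets higher (red) and lower (blue) in CA1, by the animal left out (x axis). The dark bars of animal 5 reach 0.15 and 0.12, and those of animal 8 reach 0.96 and 1.01.

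Among the 15 largest differences higher in CA1 with a common sign in all animals, SH2D4B, an SH2 domain adaptor, was 6.11-fold higher in CA1, with signals of 7.11 to 10.32 (median 7.72) in CA1 and 4.75 to 7.29 (median 5.39) in DG (2.61 ± 0.56, adjusted p = 0.0278). The difference ran from 0.43 in animal 4 to 4.86 in animal 12, and the groups overlapped slightly. CFAP46, a component of motile cilia, was 5.27-fold higher (2.40 ± 0.46, adjusted p = 0.0213) and RASL11B, a small GTPase of the Ras family, 3.75-fold higher (1.91 ± 0.30, adjusted p = 0.0142). In both the CA1 arrays lay above all DG arrays. For CFAP46 the DG signals (4.39 to 6.94) were below the array median on 6 of 6 arrays, so that this gene passed the signal filter through CA1 alone. Of the 121 called genes named here, 9 exceeded the median on at most 1 array of the field with the lower signal (CFAP46, SH2D4B, LOC712602, ROR1, PMEL, NPY2R, MTSS2, GABRG3 and LGR5), and their folds rest on dim signals there. STARD13, a protein with a lipid-binding domain, had signals of 9.22 to 10.89 (median 10.41) in CA1 and 8.11 to 9.37 (median 8.51) in DG (1.64 ± 0.20, adjusted p = 0.00904), and a further probe set also passed (0.79 ± 0.19). Its groups overlapped through the CA1 array of animal 5. PARM1, a mucin-like membrane protein, was 2.95-fold higher and PON2, an intracellular paraoxonase, 2.71-fold higher, neither with any overlap. PPP2R1B, a scaffold subunit of protein phosphatase 2A, had a 3.64-fold higher signal for the probe set used here while another had -0.24 ± 0.18, and KRT16, a keratin with near-identical relatives, was 2.90-fold higher on 1 probe set while others had 0.01, 1.38 and 0.07. The values of these last 2 genes are uncertain for that reason. CRYBG1, a crystallin-domain protein, was 2.78-fold higher and lost its call whichever animal was left out (adjusted p = 0.0767 without animal 5). LOC712602, a gene without a given name, was 3.12-fold higher.

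Among genes lower in CA1, several had almost no difference in animal 5. TSPAN18, a tetraspanin membrane protein, had signals of 6.61 to 11.76 (median 8.82) in CA1 and 10.94 to 11.97 (median 11.50) in DG, which made it 5.97-fold lower in CA1 (-2.58 ± 0.41, adjusted p = 0.0143). Animal 5 gave the highest of the CA1 values and a difference of -0.21, and without that pair the difference was -3.05 (adjusted p = 0.00158). ROR1, a receptor for Wnt ligands, was 5.66-fold lower (-2.50 ± 0.41, adjusted p = 0.015), with -0.34 in animal 5. PMEL, the fibril-forming protein of pigment organelles, behaved otherwise: it had signals of 6.02 to 7.58 (median 6.80) in CA1 and 8.50 to 9.40 (median 9.00) in DG, with no overlap, and its difference of -2.26 ± 0.26 (adjusted p = 0.00866) included -1.52 in animal 5. RTP5, a receptor-transporting protein, was 4.57-fold lower and AQP3, a channel for water and glycerol, 3.32-fold lower. GPR20, an orphan G protein-coupled receptor, was 2.86-fold lower, with -0.37 in animal 5. VWA5A (3.40-fold), LINGO2 (2.92-fold) and LRATD1 (2.68-fold) were also lower, and in animal 5 these 3 differed by only -0.01, -0.24 and -0.02. ACVR1C, a receptor of the TGF-beta family, was lower (-1.48), with -0.14 to -3.20 across the animals and -1.13 without animal 8, where the call was lost (adjusted p = 0.0516), as it was without animal 1, 4 or 9. MTSS2, a membrane-bending protein, was lower (-1.42), with -3.64 in animal 8 and -0.56 to -1.45 in the others. Its call was lost without animal 1, 4, 5, 9 or 12 (adjusted p = 0.0679 to 0.098) but not without animal 8 (-0.98) or without both (-0.86, adjusted p = 0.0265).

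**Figure D3:**
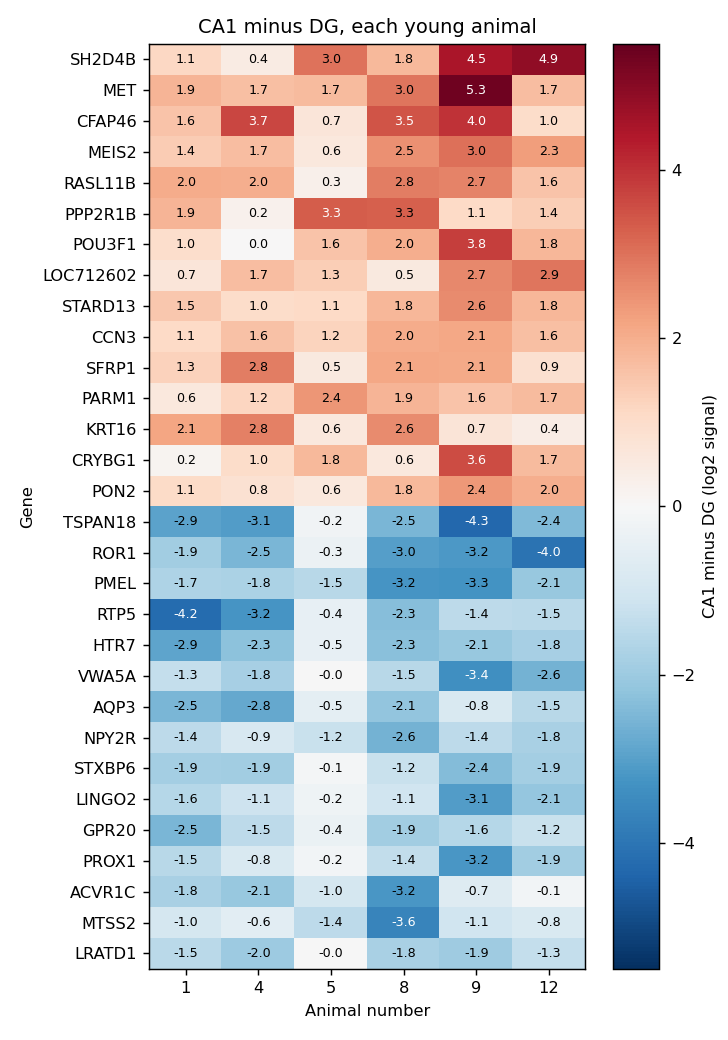
CA1 minus DG difference on the log2 scale (colour and printed value) of 30 genes (rows), the 15 largest in each direction with a common sign in all pairs, in each young animal (columns). Red marks higher and blue lower in CA1; the column of animal 5 is pale for most genes lower in CA1 but holds values of 3.0 for SH2D4B, 2.4 for PARM1 and -1.5 for PMEL.

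Transcription factors divided between the fields. Of 39 forebrain factors tested, 9 were higher in CA1 (23.1%) and 5 lower (12.8%), and their median difference was 0.02. The counts were 9 and 7 after quantile normalization, and 8 and 8 without animals 5 and 8. Beside MEIS2, ETV1 and POU3F1, the higher group held BCL11A, a zinc finger repressor, with signals of 11.24 to 11.52 (median 11.39) in CA1 and 10.49 to 11.16 (median 10.63) in DG (0.66 ± 0.12, adjusted p = 0.0179). Its groups did not overlap, and animal 5 showed the same difference as the mean, 0.66. MEIS1 (0.65 ± 0.18), FOXP1 (0.52 ± 0.12) and the interneuron factor LHX6 (0.71 ± 0.14) were also higher. The orphan nuclear receptors NR4A1 (0.83 ± 0.21) and NR4A2 (0.46 ± 0.09) completed the group. In animal 5 MEIS1 had -0.18 and NR4A1 had -0.02, and the other NR4A2 probe sets ranged from -0.22 to 1.04. Lower in CA1, beside PROX1, were EMX2 (-0.83 ± 0.17), ZBTB20 (-0.62 ± 0.12), BHLHE22 (-0.78 ± 0.21) and NFIX (-0.69 ± 0.16). EMX2 and ZBTB20 are required for hippocampal development. In animal 5 EMX2, ZBTB20 and BHLHE22 lay at 0.02, 0.02 and 0.12, while NFIX had -1.33, its largest difference of the 6.

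Receptor genes for fast transmitters were called in both directions. Of 11 AMPA, kainate and NMDA receptor genes tested, 1 was higher and 2 lower, with a median of -0.23. GRIK2, a kainate receptor subunit, had signals of 7.27 to 8.38 (median 7.55) in CA1 and 7.88 to 9.81 (median 9.00) in DG (-1.32 ± 0.15, adjusted p = 0.00866), and another probe set had -0.69 ± 0.22 and did not pass. The signal was lower in CA1 in each animal, although the groups overlapped. GRIK1, another kainate receptor subunit, went the other way (0.78 ± 0.15, adjusted p = 0.0221), and CACNG2, the AMPA receptor partner stargazin, was lower (-1.10 ± 0.25, adjusted p = 0.0307). GRIN1, the obligatory NMDA receptor subunit, did not pass (-1.19 ± 0.43, adjusted p = 0.105). Its value rested on animal 8, with a difference of -3.85, and was -0.66 without that animal.

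Of 6 GABA receptor genes tested, GABRE was higher (0.90 ± 0.18) and GABRG3 (-0.85 ± 0.22) and GABRA2 (-0.86 ± 0.23) were lower. Both lower calls were lost without animal 5 (adjusted p = 0.0831 and 0.0812) and in every other fit with 1 animal left out that tested them. GABRA2 had -2.13 in animal 8. Without animals 5 and 8 the counts were 2 higher and 0 lower.

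The potassium channel genes that were called were mostly lower in CA1, while the list as a whole was close to even. Of 40 potassium and HCN channel genes tested, 8 were lower in CA1 (20.0%, against 3.79% of all named genes), 1 was higher (2.5%, against 6.64%) and 31 did not pass, with a median of -0.06. Without animal 5 the counts were 7 lower and 3 higher, and after quantile normalization they were 7 and 2. At an unadjusted limma p under 0.05, 10 were lower and 6 higher in all 6 pairs. Of the 40 genes, between 17 and 21 had a positive difference in each animal. KCNA4, a voltage-gated channel of the Shaker family that carries A-type current, had signals of 6.69 to 7.85 (median 7.38) in CA1 and 7.88 to 8.59 (median 8.19) in DG (-0.87 ± 0.14, adjusted p = 0.0142). KCNIP2, a calcium-binding subunit of Kv4 channels, had signals of 10.11 to 11.62 (median 10.91) in CA1 and 11.82 to 12.31 (median 11.94) in DG (-1.08 ± 0.19, adjusted p = 0.017). Neither gene had any overlap between the groups, and both kept their sign in animal 5 (-0.58 and -0.25).

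KCNC1, a fast Kv3 channel, was 1.89-fold lower, KCNA3 2.06-fold, KCNMA1, the large-conductance calcium-activated channel, 1.85-fold, KCNS2 2.15-fold, KCNIP4 1.62-fold and KCNJ6, an inward rectifier gated by G proteins, 1.43-fold. For KCNMA1 the other tested probe sets did not pass (0.26 ± 0.19 and -0.75 ± 0.45), and animal 5 had 0.04. The KCNIP4 call was lost without animal 5 (-0.71, adjusted p = 0.0579), as it was without animal 1, 8, 9 or 12. KCNN3, a small-conductance calcium-activated channel, was the gene higher in CA1 (0.46 ± 0.10, adjusted p = 0.0278). Of 14 sodium and calcium channel genes, 3 were lower and 0 higher (limma; 3 and 2 at an unadjusted p under 0.05). With quantile normalization 2 were lower and 1 higher, as without animals 5 and 8, and a common 75th percentile gave 1 and 1. The 3 lower genes were CACNA1I, a T-type calcium channel (-0.77 ± 0.20), CACNA1D, an L-type calcium channel (-0.51 ± 0.13), and SCN3A, a sodium channel (-0.81 ± 0.22). CACNA1I and SCN3A lay at 0.06 and 0.27 in animal 5. CACNA1D and SCN3A lost their calls with a common 75th percentile. The CACNA1D call was also lost with quantile normalization and without animals 5 and 8 (limma adjusted p = 0.0544).

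Among receptors for slow transmitters, the largest called difference was in HTR7, a serotonin receptor that raises cyclic AMP. It had signals of 6.15 to 9.47 (median 7.12) in CA1 and 8.97 to 9.93 (median 9.31) in DG, which made it 3.94-fold lower (-1.98 ± 0.27, adjusted p = 0.0112), and its second tested probe set also passed (-1.02 ± 0.20). Only the CA1 array of animal 5, at 9.47, overlapped with DG. ADRA1A, an alpha-1 adrenergic receptor, was 2.09-fold lower (-1.07 ± 0.23, adjusted p = 0.0278), and these 2 were the genes called among 10 receptors for serotonin, dopamine, noradrenaline and acetylcholine. CHRM1, the muscarinic receptor of pyramidal and granule neurons, did not pass (-0.88 ± 0.45, adjusted p = 0.239) and was -0.33 without animal 8.

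Of 22 neuropeptide and receptor genes tested, 2 were higher and 4 lower in CA1 (9.09% and 18.2%), and without animal 5 the counts were 5 and 4. NPY2R, the presynaptic Y2 receptor for neuropeptide Y, had signals of 5.00 to 6.95 (median 6.30) in CA1 and 7.06 to 8.42 (median 7.74) in DG (-1.56 ± 0.23, adjusted p = 0.013). The groups did not overlap, and animal 5 had -1.23. NPY5R, a further receptor of this peptide, was 1.72-fold lower, but had 0.07 in animal 5. CHGB, a granin of dense-core vesicles, was 1.63-fold lower and PENK, the enkephalin precursor, 1.22-fold lower. A second PENK probe set differed more (-1.85 ± 0.46, adjusted p = 0.039), and the first lost its call without animals 5 and 8 (adjusted p = 0.0665), with a common 75th percentile and with the actin ratio as a covariate. OPRK1, the kappa opioid receptor, was 2.04-fold higher in CA1 and CRHBP, the binding protein of corticotropin-releasing hormone, 1.72-fold higher, and these had 0.07 and 0.08 in animal 5.

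Genes of Wnt signalling were called in both directions. Of 25 tested, 2 were higher and 4 lower, with 3 and 3 after quantile normalization and 1 and 5 without animal 5. SFRP1, a secreted Wnt antagonist, had signals of 8.74 to 12.08 (median 10.73) in CA1 and 7.86 to 9.57 (median 8.98) in DG (1.62 ± 0.27, adjusted p = 0.016). The lowest CA1 array, of animal 12, lay within the DG range, and animal 5 had the smallest difference, 0.53. Another tested SFRP1 probe set did not pass (1.19 ± 0.48, limma adjusted p = 0.141). DKK3, a divergent member of the Dickkopf family, was 1.32-fold lower. Another DKK3 probe set also passed (-0.74 ± 0.10), and the rest of those tested did not, with -0.85 to -0.16. The receptors FZD3 (-0.72 ± 0.18), FZD7 (-0.62 ± 0.16) and LGR5 (-1.21 ± 0.32) were lower while FZD4 was higher (0.55 ± 0.14). The FZD3 and FZD4 calls were lost without animal 5 (adjusted p = 0.0591 and 0.0696). FZD3 also lost its call without any other animal, and FZD4 without animal 1, 8, 9 or 12.

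Of 41 axon guidance genes, 4 were higher (9.76%) and 5 lower (12.2%). PLXNA4, a semaphorin receptor, had signals of 8.52 to 9.82 (median 9.07) in CA1 and 9.89 to 10.56 (median 10.22) in DG (-1.10 ± 0.14, adjusted p = 0.0106). The groups did not overlap, a second probe set had -1.54 ± 0.26 and passed, and animal 5 had -0.74. NRP1, the neuropilin that forms receptors with plexins, was 2.24-fold lower (-1.17 ± 0.16, adjusted p = 0.0122), and a second tested probe set also passed (-1.10 ± 0.23). The repellent ligand SLIT1 (-1.01 ± 0.16), the netrin receptor UNC5A (-0.74 ± 0.16) and the membrane-anchored NTNG2 (-0.85 ± 0.17) were lower as well. Its relative NTNG1 was higher in CA1 (0.99 ± 0.16, adjusted p = 0.0142), so the pair of netrin-G genes differed in opposite directions. EFNB2, an ephrin ligand, had signals of 10.31 to 10.98 (median 10.85) in CA1 and 9.21 to 10.32 (median 9.69) in DG (1.02 ± 0.16, adjusted p = 0.0133), with an overlap only through the CA1 array of animal 5. EPHA3, an ephrin receptor (0.69 ± 0.15), and PLXND1, a plexin (0.82 ± 0.14), were higher too. Among 17 cadherin and contactin genes, CDH18 (0.79 ± 0.10) and CNTNAP5 (0.80 ± 0.17) were higher and CDH9 lower (-1.25 ± 0.28), with 0.07 for CDH9 in animal 5. The counts were 2 and 3 without animal 5, and 3 and 3 without animals 5 and 8.

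Among postsynaptic density and kinase genes the largest called difference was in CAMK2D. This gene, which encodes the delta subunit of calcium/calmodulin-dependent kinase II, had signals of 12.07 to 13.18 (median 13.07) in CA1 and 10.74 to 12.27 (median 11.63) in DG (1.37 ± 0.14, adjusted p = 0.00631). Animal 5 had the lowest CA1 signal, yet its own difference was 1.33, and the other 2 probe sets passed at 1.17 ± 0.09 and 1.09 ± 0.16. Of 22 postsynaptic density and kinase genes, 4 were higher and 1 lower. The others were the scaffold gene DLGAP4 (0.66 ± 0.12, with 0.21 on another tested probe set), the scaffold gene DLG1 (0.38 ± 0.09, with 0.06 and -0.32 on other tested probe sets), the kinase gene CAMKK2 (0.59 ± 0.15, with 0.32 and -0.65) and, lower in CA1, the calmodulin-binding NRGN (-0.29 ± 0.07). CAMKK2 and NRGN were not called without animal 5 (adjusted p = 0.069 and 0.0689), nor without animal 1, 8 or 9. Of 13 genes of synaptic vesicles and release, SYN2, which tethers vesicles, was lower (-0.65 ± 0.10, adjusted p = 0.013), 0 were higher (limma; 1 higher and 6 lower at an unadjusted p under 0.05) and the median was -0.38. SLC17A7, the vesicular glutamate transporter of these neurons, did not pass (-0.71 ± 0.21, adjusted p = 0.0639) and had -1.74 in animal 8. Of 11 regulators of G protein signalling, RGS2 (0.95 ± 0.15, no overlap, with 0.20 on another probe set) and RGS4 (1.41 ± 0.29) were higher, and RGS4 had 3.13 in animal 8.

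Of 11 immediate early genes, which respond quickly to activity, 4 were higher in CA1 (36.4%) and 0 lower (limma; also 0 lower at an unadjusted p under 0.05). These were EGR2 (0.97 ± 0.22), DUSP1 (0.52 ± 0.12), NR4A1 and NR4A2. EGR2 had signals of 7.82 to 9.26 (median 8.50) in CA1 and 6.55 to 8.21 (median 7.66) in DG, and the groups overlapped although each animal was higher in CA1. BDNF, the neurotrophin that is itself induced by activity, was on the other side, with signals of 8.32 to 10.17 (median 8.83) in CA1 and 9.78 to 10.44 (median 10.25) in DG (-1.25 ± 0.20, adjusted p = 0.0143). Only animal 5 had a CA1 signal within the DG range, and without it the difference was -1.45 (adjusted p = 0.00282). The other BDNF probe sets, too dim to be tested, had differences of 0.71 and -0.03.

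Of 21 growth factor, neurotrophin and steroid receptor genes, 4 were higher, among them MET, and only BDNF was lower; without animal 5 the counts were 5 and 3, and without animals 5 and 8 they were 5 and 5. FGFR2, a fibroblast growth factor receptor, was 1.62-fold higher with no overlap, and FGF12, an intracellular member of that family, 1.25-fold higher. Their other tested probe sets did not pass, with 0.38, 0.40, 0.23 and 0.00 for FGFR2 and 0.04 and 0.11 for FGF12. ERBB3, a neuregulin receptor carried by oligodendrocytes, was 2.24-fold higher, with -0.55 in animal 5. In the extracellular matrix, 2 of 21 genes were higher (9.52%, against 6.64% of all named genes) and 0 lower. At an unadjusted limma p under 0.05 the counts were 6 and 1. The called counts were 4 and 0 without animal 5, and 3 and 1 without animals 5 and 8. HAPLN4, a link protein of perineuronal nets, had signals of 9.16 to 10.80 (median 10.46) in CA1 and 7.97 to 9.72 (median 9.08) in DG (1.44 ± 0.27, adjusted p = 0.0209), and the CA1 array of animal 5 was the lowest of its group. The proteoglycan DCN was 1.32-fold higher and lost its call whichever animal was left out (adjusted p = 0.0558 without animal 5).

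Genes of oxidative phosphorylation differed little in size. Of 43 tested, 5 were higher in CA1 (11.6%), 0 were lower (limma; 12 and 1 at an unadjusted p under 0.05) and 38 did not pass, with a median of 0.14. After quantile normalization 4 were higher and 1 lower. The 5 were NDUFS7 (0.49 ± 0.09, with 0.07 on another tested probe set) and NDUFA8 (0.32 ± 0.08) of complex I, SDHA (0.36 ± 0.08) of complex II, UQCRQ (0.38 ± 0.08) of complex III and COX6B1 (0.27 ± 0.07) of complex IV. UQCRQ and COX6B1 had no overlap between the groups. NDUFA8 lost its call whichever animal was left out (adjusted p = 0.0539 without animal 5). SDHA and COX6B1 lost theirs without animal 1, 4, 8, 9 or 12. Both were also lost without animals 5 and 8 (limma adjusted p = 0.0662 and 0.0919). The UQCRQ call was lost without animal 1, 8, 9 or 12, and that of NDUFS7 without animal 1 or 9.

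Myelin genes were called in a single direction, to which animal 5 ran counter. Of 11 oligodendrocyte and myelin genes tested, 5 were higher (45.5%) and 0 lower (limma; 9 and 0 at an unadjusted p under 0.05), with a median of 1.05. Without animal 5 the count was 9, as it was without animals 5 and 8. Of the 11 genes, 11 had a positive difference in animals 1, 4, 8 and 12, 10 had one in animal 9, and 1 had one in animal 5. That gene was ENPP2, which encodes autotaxin, a lysophospholipase, with signals of 12.41 to 13.85 (median 13.27) in CA1 and 11.30 to 12.81 (median 11.79) in DG (1.23 ± 0.12, adjusted p = 0.00569). Both other probe sets of ENPP2 passed, at 1.54 ± 0.12 and 1.49 ± 0.13. Autotaxin is also made by cells of the choroid plexus. The choroid plexus genes FOLR1 and CLIC6 were high in the CA1 array of animal 5. FOLR1, a folate receptor, had 11.03 there and 5.36 to 6.98 on the other 11 arrays. CLIC6, a chloride channel protein, had 9.20 there and 4.00 to 6.69 on the others. Neither passed the signal filter, and of the 3 ependyma and choroid plexus genes that did, limma called 0 (0 also at an unadjusted p under 0.05). The mean log2 signal of these 3 was 9.16 in the CA1 array of animal 5, 8.16 to 9.06 in the other CA1 arrays and 8.16 to 8.83 in DG. The CA1 array of animal 5 also had the highest ENPP2 signal, and without animal 5 the ENPP2 difference was 1.27 (adjusted p = 0.00222). The part of choroid plexus in the differences was not tested.

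UGT8, which makes the galactolipids of myelin, had signals of 10.78 to 12.68 (median 11.89) in CA1 and 9.50 to 11.90 (median 10.92) in DG (1.05 ± 0.25, adjusted p = 0.0367). The difference lay between 1.06 and 1.68 in 5 animals and at -0.53 in animal 5, without which it was 1.36 (adjusted p = 0.00163). PLLP, a myelin membrane protein, ASPA, an enzyme that splits N-acetylaspartate, and MYRF, the myelin regulatory factor, were 2.12-fold, 2.33-fold and 2.09-fold higher, with -0.42, -0.76 and -0.48 in animal 5. Other tested probe sets of UGT8 (0.71 ± 0.31) and MYRF (0.24 ± 0.32) did not pass. MBP, the myelin basic protein, did not pass in all 6 pairs (0.36 ± 0.12, adjusted p = 0.095) but did without animal 5 (0.52, adjusted p = 0.00293), in which it had -0.41.

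Markers of other cells were measured in the same way. Of 10 interneuron genes, LHX6, GAD2 (0.66 ± 0.15), an enzyme of GABA synthesis whose other probe set had 0.05, and DLX1 (0.42 ± 0.10) were higher. The median of the 10 genes was 0.09. Another LHX6 probe set, too dim to be tested, had -0.88. Of 14 microglia and macrophage genes, TYROBP (0.55 ± 0.12, no overlap) and CD14 (0.53 ± 0.13, adjusted p = 0.0712 without animal 5) were higher. The CD14 call was lost whichever animal was left out. Of 7 genes of progenitors and immature neurons, SOX11, DCX and ELAVL4 were higher in CA1. SOX11 had signals of 8.77 to 9.66 (median 9.39) in CA1 and 7.46 to 8.61 (median 8.30) in DG (1.15 ± 0.16, adjusted p = 0.0122), with no overlap, and DCX, a microtubule protein of immature neurons, had 0.50 ± 0.09 (adjusted p = 0.0205). A second DCX probe set, too dim to be tested, went the other way (-1.54). The other tested probe set of SOX11 did not pass (0.69 ± 0.21), while that of ELAVL4 did (0.44 ± 0.11). HBA, a haemoglobin gene with near-identical copies, was 1.91-fold higher (0.93 ± 0.12), while HBB had 0.18 ± 0.18 and did not pass.

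Among 12 astrocyte genes 0 were called in limma (1 higher and 3 lower at an unadjusted p under 0.05), and GFAP, the astrocyte filament protein, had -0.12 ± 0.09 (adjusted p = 0.428). Among 9 endothelial and mural cell genes 0 were called (4 higher and 0 lower at an unadjusted p under 0.05), but 3 were higher after quantile normalization and 2 with a common 75th percentile. Of 5 genes of CA2 and CA3 neurons and 4 of oligodendrocyte precursors, 0 were called (1 higher and 2 lower, and 0 either way, at an unadjusted p under 0.05). The mean log2 signal of the 12 astrocyte genes was 12.69 to 12.94 in CA1 and 12.81 to 13.12 in DG, and that of the 14 microglia genes 8.86 to 9.35 and 8.60 to 9.03. The part of these cell types in the other differences was not tested.

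**Figure D4:**
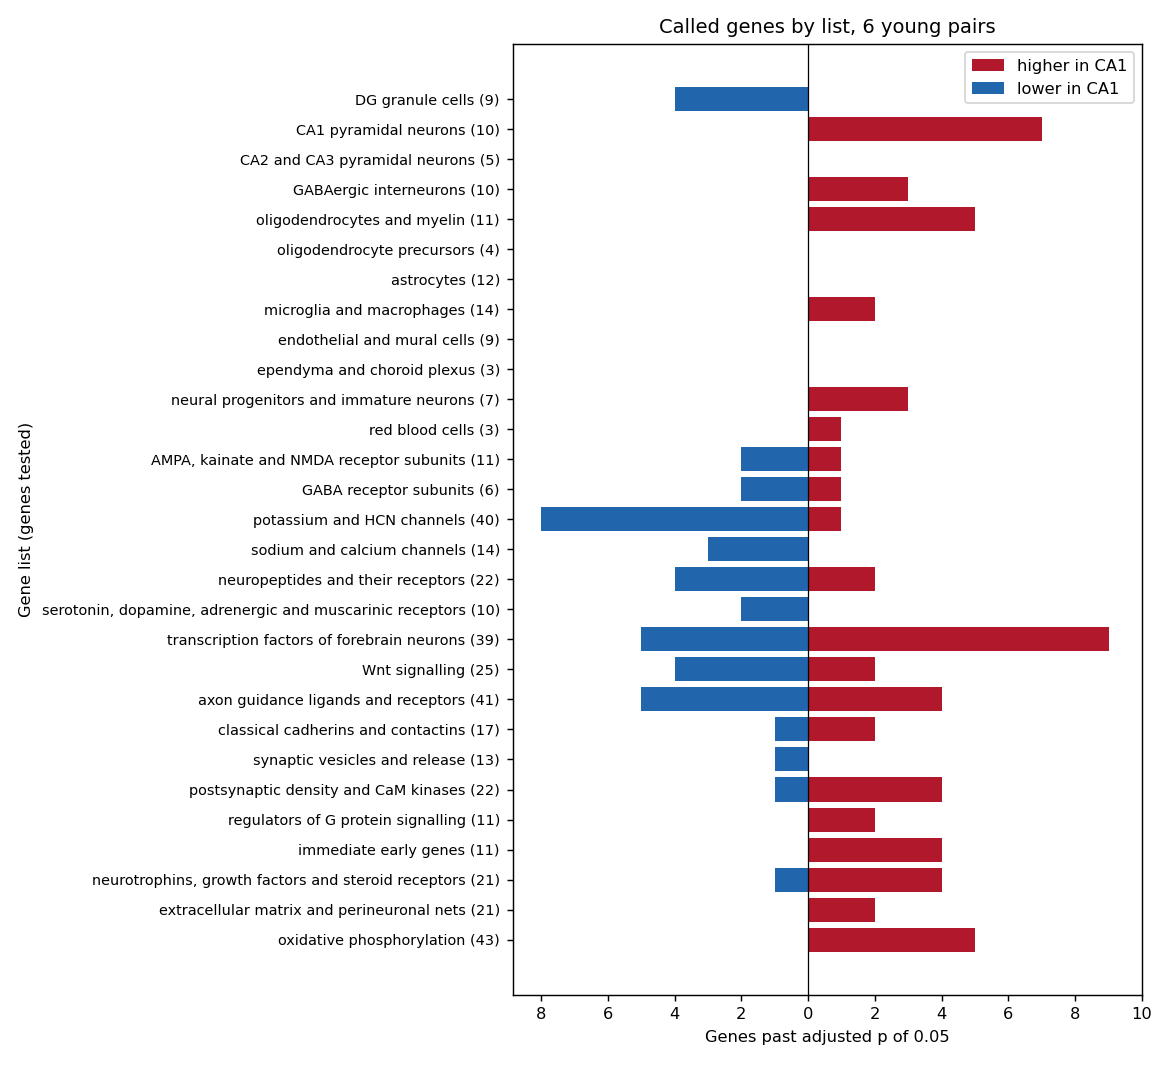
Genes called by limma at an adjusted p under 0.05, as counts (x axis), higher (red, right) and lower (blue, left) in CA1 over 6 young pairs, for each gene list (y axis, with the number tested). CA1 pyramidal neuron genes were called 7 higher and 0 lower, oligodendrocyte genes 5 and 0, and potassium and HCN channel genes 1 and 8.

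The regional differences were last set beside those of the 5 aged pairs, fitted by themselves. Limma called 2900 of 26573 probe sets there (10.9%). Of 2514 young calls that were tested in aged animals, 2496 (99.3%) had the same sign, against 78.2% of all probe sets, and 1315 (52.3%) were called in the same direction, with 0 called in the opposite one. Of 2859 aged calls tested in young animals, 46.0% were called there. MET had 2.54 ± 0.45 in young and 2.25 ± 0.29 in aged animals, MEIS2 1.92 ± 0.28 and 1.84 ± 0.26, TSPAN18 -2.58 ± 0.41 and -2.93 ± 0.45, and PROX1 -1.50 ± 0.32 and -1.06 ± 0.27 (n = 6 and 5 pairs). Aged animal 3 had differences of 0.40 for PROX1, 0.49 for MEIS2 and -0.72 for UGT8, and 0 of 11 oligodendrocyte genes were called in aged pairs by limma (median 0.81).

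Whether a regional difference itself changed with age was tested on the difference of each animal. Of 28852 probe sets, limma called 0, and 798 (2.77%) had an unadjusted p under 0.05. The smallest adjusted p was 1.0. CFAP46 had 2.40 ± 0.46 in young and 0.92 ± 0.34 in aged pairs, and RGS4 1.41 ± 0.29 and 2.20 ± 0.25, and neither of these changes in the difference passed. MYCBPAP had a positive difference in all 6 young animals (0.41 to 3.22) and a negative one in all 5 aged animals (-1.19 to -0.24), a change of 1.81 ± 0.45 that did not pass either (adjusted p = 1.0). This gene was named for its small unadjusted p in this same test. Its DG signals in young animals (4.17 to 6.99) exceeded the array median on only 1 array, so its differences rest on dim signals.

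**Figure D5:**
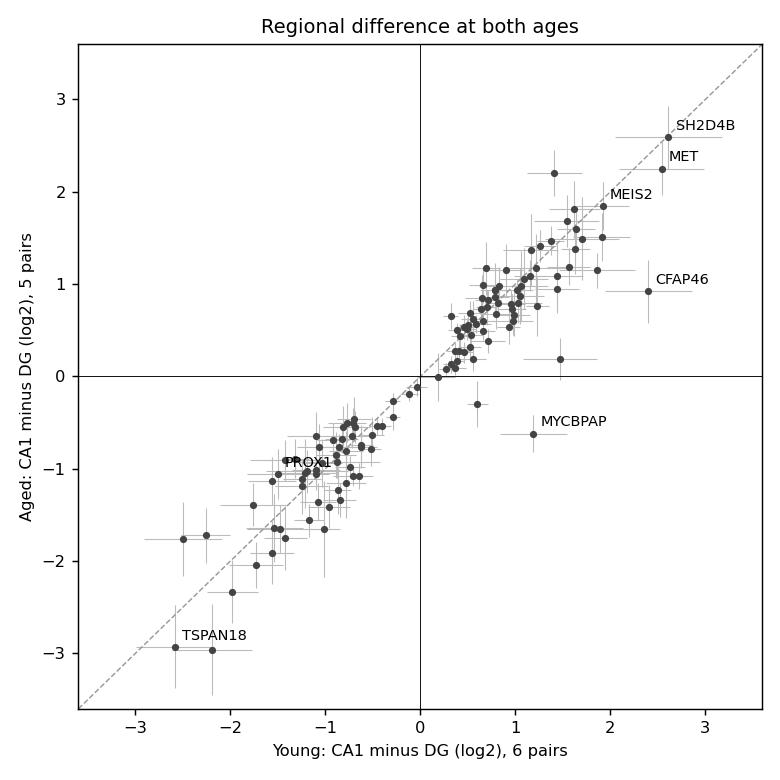
CA1 minus DG difference on the log2 scale in 6 young pairs (x axis) and 5 aged pairs (y axis) of 126 named genes, with standard errors as grey lines and equal values along the dashed line. Of these genes 123 lie on the same side of 0 at both ages; the exceptions are MYCBPAP (1.19 and -0.62), DMRTC1B (0.60 and -0.30) and HBB (0.18 and -0.01).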

How the data were processed

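For each of 52865 probe sets the authors deposited a linear MAS5 signal intensity, per the submitters' processing notes; the MAS5 version is not given in the sources used here. The trimmed mean (2% at each end) was 500.027 to 500.036 on each array. Without 99 controls, 24956 probe sets carried 1 symbol, 361 had several and 27449 were unnamed here. Zeros (10 to 34 per young array) were raised to 1 before log2. Probe sets above the array median in at least 6 of 12 arrays (5 of 22 for age) were fitted with limma 3.58.1 in R 4.3.3 (lmFit, eBayes with trend), with the animal as a block, and checked on simulated data; tests are two-sided, and the number of arrays limits the precision.

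Both fields come from the same hippocampus by the series' design text, and deviations from the group means correlated between the 2 arrays of an animal at 0.144 to 0.50, in 6 of 6 animals more than with any other. For animal 1 the stated ages differ (6.5 years on the CA1 title, 7.75 on the DG title), and its correlation was 0.50. The labels do not settle whether these arrays come from the same animal. Without this pair the number of calls fell from 2547 to 131. Replicates were taken as separate animals, which the labels do not state, and no arrays held identical values (r 0.883 to 0.971 within groups).

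The members, the gene lists and the naming rule were chosen with earlier results of these data known. The rule took the 15 largest called differences in each direction with a common sign in 6 pairs, up to 4 genes of each list with the smallest p, PROX1, C1QL2, MET, MEIS2, WFS1, CALB1, MBP and GFAP, and the 5 smallest p for age in each direction. CALB1 had no named probe set, and hilar mossy cell genes, of which 0 passed the signal filter, gave no value. A further 25 called genes of the lists were named after their values were seen. Alternatives covered the log offset, quantile and 75th percentile scaling, the filter, the intensity trend, the pairing, the methods' t-test, the actin ratio and the animals; leaving out animals 5 and 8 together, and fitting the aged pairs alone, were added after the data were seen. Animal 6 has no DG array analysed here.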

Additional observations from a re-analysis of the deposited data

Results flagged for a closer look

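Across 129 genes, 387 groups of 6 values (CA1 signals, DG signals and differences within animals, all on the log2 scale) were searched for a value far from the other 5, and 40 were found. Chance gives such a value in about 1 in 20 groups.

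The CA1 array of animal 5 was low for MEIS2 (9.39), CRYM (12.56), EFNB2 (10.31), CAMK2D (12.07), HAPLN4 (9.16), MBP (14.68), SOX11 (8.77), MEIS1 (6.64) and KCNN3 (8.56), and high for AKAP7 (12.87) and LGR5 (7.80). The CA1 minus DG difference of animal 5 was below those of the other animals for ERBB3 (-0.55), UGT8 (-0.53), ASPA (-0.76), MBP (-0.41) and MEIS1 (-0.18), and above them for LRATD1 (-0.02) and KCNA3 (0.19), 2 genes called lower in CA1. Its DG array was high for MYRF (10.62).

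The CA1 array of animal 8 was low for MTSS2 (4.00), GRIN1 (5.58) and CHRM1 (4.32). The difference of animal 8 was low for MTSS2 (-3.64), GRIN1 (-3.85) and SLIT1 (-1.82) and high for SOX11 (1.96).

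In animal 9 MET was high in CA1 (11.05), with a difference of 5.35, and the difference of CDH18 was low (0.40). SDHA was low in both fields of animal 9 (11.60 in CA1 and 11.42 in DG). The DG array of animal 9 was high for CACNG2 (10.13), KCNS2 (9.25) and LGR5 (8.84) and low for TYRO3 (10.78).

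In animal 1 DKK3 was low in CA1 (13.65), DCN was high in DG (10.10) and UNC5A was low in DG (11.87). The difference of CAMKK2 was low in animal 4 (-0.29), and that of MYCBPAP was high in animal 12 (3.22).

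The regional difference of MYCBPAP was positive in 6 of 6 young animals and negative in 5 of 5 aged animals, a change of 1.81 ± 0.45. In the limma test of that change over all probe sets the adjusted p was 1.0. The gene was named from that test, and its DG signal in young animals exceeded the array median on only 1 array.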

How the results depend on the processing

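The number of calls (2547, with 1180 higher and 1367 lower in CA1) stayed within 1.5 times with a log2 offset of 16, quantile or 75th percentile scaling, a stricter filter, the actin ratio as a covariate and without animals 5 and 8. Without the filter it was 1407 (634 and 773), without the intensity trend 1676 (671 higher), with the methods' t-test 97 (60 and 37), and over all 11 animals 8686 (3989 and 4697). Without the pairing of CA1 and DG by animal as a block it was 1695 (749 higher). Leaving out 1 animal gave 131 to 3096 calls, 64 to 1409 higher and 67 to 1687 lower. Of the 121 called genes named, 106 lost their call without animal 1, 78 without animal 9, 72 without animal 12, 71 without animal 4, 65 without animal 8 and 12 without animal 5, and 121 with the methods' t-test after adjustment. None changed direction under these settings, which their choice by calls in the same pairs largely fixed. WFS1, which was not called (-0.04), had 0.01 with a common 75th percentile and between -0.12 and 0.00 when 1 animal was left out (0.00 without animal 4). The causes were not tested. The test of age called 0 probe sets under each alternative run. Signals near the array median limit what can be called for dim genes, and p-values rest on 6 animals.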
